A study of Mus musculus with 12 samples.

Results

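The clock output factors described here are 9 genes that carry the rhythm of the circadian clock to other genes, or that feed back on it: *Dbp*, *Tef*, *Hlf*, *Nfil3*, *Bhlhe40*, *Bhlhe41*, *Ciart*, *Rora* and *Usp2*. They were taken by gene symbol and not by a rule on a measured value, though earlier results of these data were known. All 9 are among the 15838 genes of the deposited tables. RNA of corneal endothelial cells (CEC), peeled with the Descemet membrane, was sequenced in 12 libraries from C57BL/6 mice at 10 weeks of age, under the assumption of one mouse per library, because the methods describe the membranes of one mouse as a pair and the sample records describe pooling. The 4 groups had 3 libraries each: KO male, KO female, WT male and WT female. KO mice (*Slc4a11*-/-) carry a germline deletion within *Slc4a11*, a membrane transporter gene of the corneal endothelium, and the WT mice (*Slc4a11*+/+) were their littermates, with no other allele and no treatment in either. The design crosses genotype with sex, and the study asked whether the loss of *Slc4a11* acts differently in males and females. The value used for each gene is the authors' mean over the libraries, with genotypes and sexes together. Every level below therefore describes the peeled tissue of the whole series, not CEC alone. Keratocyte genes were also high in it, as given with the tissue markers below. No level of a single group or library is given. The mean has no error of its own, depth per library is unknown, and no difference between genes or groups was tested.

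In the circadian clock, CLOCK and ARNTL bind E-box sequences and switch on the *Per* and *Cry* genes, whose proteins then inhibit them. The same E-box drive reaches the PAR bZIP factors DBP, TEF and HLF, which activate genes through D-box sequences, while NFIL3 represses through the same sequences. A further loop runs through the RORE sequence, where ROR receptors such as RORA activate and the REV-ERB receptors *Nr1d1* and *Nr1d2* repress. BHLHE40 and BHLHE41 compete at E-boxes, CIART represses CLOCK and ARNTL, and USP2 is a deubiquitinase with rhythmic expression in many tissues. Because these transcripts rise and fall over the day, their level depends on the hour of collection. Mice were kept in a light/dark cycle, and the hour was not given in the sources used here.

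The sequences at the members' start sites were searched for the motifs of these loops, and for the cAMP response element, which is not part of the loops described above. RefSeq promoters on GRCm38.p6, each with 250 bases before and 50 bases after a start site, were matched by symbol for 8 of the 9 members. *Tef* has 2 start sites, which gives 9 promoters, and *Bhlhe40* had none. The motifs searched on both strands were the E-box CACGTG, the D-box TTANGTAA (N is any base), the RORE core TAGGTCA and the cAMP response element TGACGTCA. No match overlapped another. The stretches with a match are shown 5′ to 3′ on the strand of the gene, to show how the motifs lie in the members. Each motif is in capitals, with up to 30 bases on each side (at least 11 where the bases are annotated as exonic in GENCODE, and none past the start site).
*Ciart*, chr3:95882252-95882374, minus strand: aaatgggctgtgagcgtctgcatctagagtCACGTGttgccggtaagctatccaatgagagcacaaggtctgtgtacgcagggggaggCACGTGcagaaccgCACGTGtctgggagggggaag
*Bhlhe41*, chr6:145865557-145865603, minus strand: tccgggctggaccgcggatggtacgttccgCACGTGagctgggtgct
*Tef*, upstream start site, chr15:81802535-81802562, plus strand: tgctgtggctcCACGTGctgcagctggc
*Tef*, downstream start site, chr15:81811246-81811311, plus strand: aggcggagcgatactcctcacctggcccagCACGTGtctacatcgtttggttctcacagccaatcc
*Nfil3*, chr13:52981040-52981062, minus strand: gcgctcggaacTGACCTActaac
*Hlf*, chr11:90390918-90390956, minus strand: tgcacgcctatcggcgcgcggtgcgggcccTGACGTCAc

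An E-box lay in 4 of the 9 promoters, those of *Ciart*, *Bhlhe41* and both start sites of *Tef*, and in 7.15% of all 32851 mouse promoters in the RefSeq set. By gene, 3 of the 8 members held it, against 8.09% of all genes. Among promoters of genes with a measured level, the shares were 9.57% (E-box), 1.75% (RORE core), 2.89% (cAMP response element) and 1.49% (D-box). The *Ciart* promoter held 3 E-boxes, which begin at positions -116, -58 and -44, counted from the start site, with the last base before it as -1. The E-box of *Bhlhe41* begins at -153, and those of *Tef* at -127 and -138. The RORE core was found in *Nfil3* alone, at -12 on the opposite strand, against 2.61% of all promoters. Positions refer to the RefSeq start site. In GENCODE, all 23 bases shown for *Nfil3* and all 28 for the upstream *Tef* start site are annotated as exonic, the motifs included. *Hlf* was the single member with the cAMP response element, at -9, which 1.79% of all promoters hold. No D-box was found in the 9 promoters (2.32% of all promoters), and the promoters of *Dbp*, *Rora* and *Usp2* held none of the 4 motifs. That says only that these letters are not in these windows. The *Usp2* window, chr9:44084670-44084969, lies within the gene, which begins at 44067021 in GENCODE, so its upstream start was not searched. GC content ran from 60.3% in *Dbp* and *Rora* to 81.7% in *Nfil3*, above the median of 52.7% over all promoters, and its part in the matches was not tested. Of the 13 core clock genes with a promoter in the set, *Cry1* and *Per1* held the E-box and *Arntl* the RORE core, while *Per3*, *Rorb* and *Timeless* held the D-box.

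Levels are given as the mean log2 CPM (CPM scales the read count of a gene by the mapped reads of its library) and, for any comparison between genes, as log2 CPM per kb of exon, which divides CPM by the exonic bases of all annotated transcripts of the gene together. On the second scale 6 of the 9 members lay above the median of all genes, which was 1.79. The median of the 9 members was 3.77, and they ran from -0.10 for *Nfil3* to 5.51 for *Tef*, a 49.1-fold range in CPM per kb. The order from high to low was *Tef*, *Dbp*, *Rora*, *Hlf*, *Bhlhe40*, *Bhlhe41*, *Ciart*, *Usp2* and *Nfil3*. With no spread between libraries, it cannot be said which neighbours in this order differ. In bulk RNA, fewer cells of a type and less RNA per cell cannot be told apart. Values given as CPM or CPM per kb, without log2, are mean log2 values converted back, not means of CPM.

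**Figure D1:**
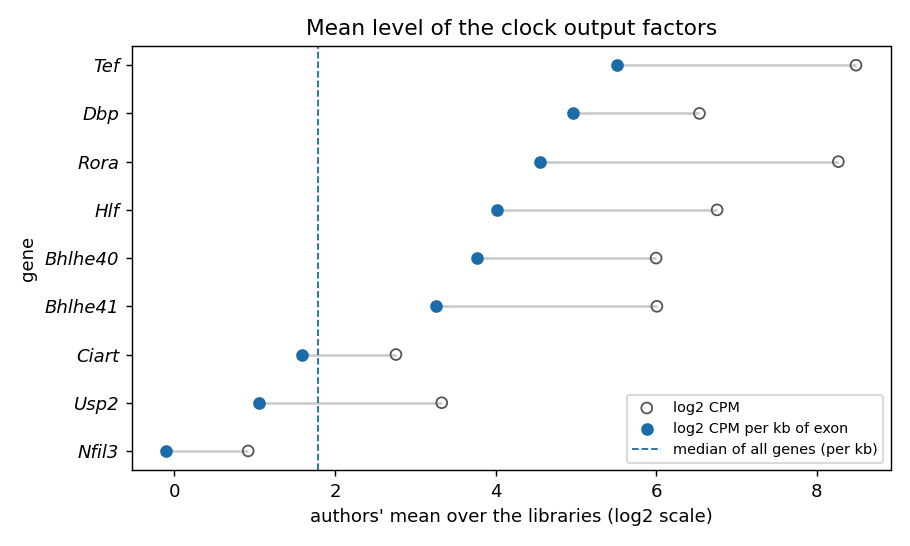
Mean level of the 9 clock output factors over the libraries, as log2 CPM (open circles) and log2 CPM per kb of exon (filled circles), with the median of all genes per kb as a dashed line at 1.79. *Tef* to *Bhlhe41* lie above the line on the per kb scale and *Ciart*, *Usp2* and *Nfil3* below it, without error bars because each point is one pooled mean.

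The PAR bZIP activators were among the more abundant transcripts. *Tef* (thyrotroph embryonic factor, ENSMUSG00000022389, chr15:81802421-81826863, plus strand) had the highest level of the 9, with 359 CPM over 7867 exonic bases, or 45.7 CPM per kb. It stood at percentile 96.0 of all genes on the per kb scale. Its promoters carry the E-boxes shown above at both start sites. *Dbp* (D-box binding protein, ENSMUSG00000059824, chr7:45705088-45710203, plus strand) had 93.2 CPM over 2993 exonic bases, or 31.1 CPM per kb, at percentile 93.7. *Hlf* (hepatic leukemia factor, ENSMUSG00000003949, chr11:90336536-90390895, minus strand) had 109 CPM over 6681 exonic bases, or 16.3 CPM per kb, at percentile 86.3. *Hlf* therefore had more reads than *Dbp* and fewer per kb. Per kb, *Tef* was 1.47-fold higher than *Dbp*, and *Dbp* was 1.92-fold higher than *Hlf*.

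*Nfil3*, the repressor that competes with these activators at the D-box, was at the other end. *Nfil3* (ENSMUSG00000056749, chr13:52967209-52981073, minus strand) has a single annotated transcript of 2026 bases and a mean of 1.89 CPM, or 0.93 CPM per kb, at percentile 22.7. *Dbp* was 33.4-fold higher than *Nfil3* in CPM per kb. The levels of the activators and of the repressor of the D-box lay on opposite sides of the median gene, with *Dbp*, *Tef* and *Hlf* above it. These levels depend on the hour of collection, which was not given in the sources used here. *Nfil3* was also low in CPM, and depth per library is unknown.

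The bHLH repressors *Bhlhe40* and *Bhlhe41*, also known as DEC1 and DEC2, had nearly equal read counts. *Bhlhe40* (ENSMUSG00000030103, chr6:108660629-108666925, plus strand) had 64.0 CPM and *Bhlhe41* (ENSMUSG00000030256, chr6:145858243-145865558, minus strand) 64.4 CPM. Over 4705 and 6720 exonic bases these came to 13.6 and 9.58 CPM per kb, at percentiles 83.2 and 75.8. Per kb, *Bhlhe41* was 0.70 times as high as *Bhlhe40*. Both genes lie on chromosome 6, far apart and on opposite strands.

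*Rora*, the receptor that activates through the RORE, spans chr9:68653786-69388246 on the plus strand (ENSMUSG00000032238). It was at 309 CPM over 13071 exonic bases, the longest of the 9, or 23.7 CPM per kb at percentile 91.2. The REV-ERB repressors of the same sequence were at 48.3 CPM per kb for *Nr1d1* and 24.5 for *Nr1d2*, so *Nr1d2* and *Rora* were close. *Arntl*, a known target of this loop, was at 3.28 CPM per kb.

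*Ciart* and *Usp2* were below the median gene. *Ciart* (ENSMUSG00000038550, chr3:95878503-95882251, minus strand), whose promoter holds 3 E-boxes, had 6.79 CPM over 2261 exonic bases, or 3.01 CPM per kb, at percentile 46.3. *Usp2* (ENSMUSG00000032010, chr9:44067021-44095627, plus strand) had 10.1 CPM over 4818 exonic bases, or 2.09 CPM per kb, at percentile 38.2. *Usp2* had more reads than *Ciart* and fewer per kb. Of the 3 members found with an E-box, *Tef* was at the top of the order, *Bhlhe41* was above the median gene and *Ciart* below it. The percentile of *Ciart* ran from 38.0 to 44.0 under the alternative settings given at the end. Whether the E-box goes with the level was not tested.

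**Figure D2:**
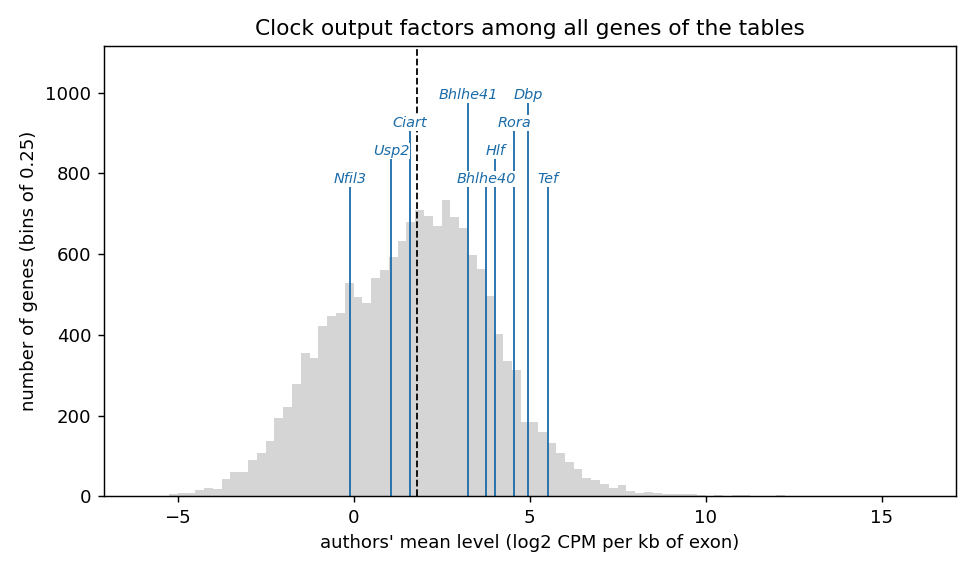
Number of genes at each mean level (log2 CPM per kb of exon, bins of 0.25) for the 15824 genes with annotated exons, with a blue line for each clock output factor and a dashed line at the median of 1.79. The members spread from *Nfil3* at -0.10 to *Tef* at 5.51, and the highest gene of the tables is at 15.38.

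The core clock genes gave a like range. Of 18 genes listed as core clock genes, *Timeless* among them, 17 had a value. Of these 17, 13 lay above the median gene per kb, where 7912 of 15824 genes did so by definition. The median of the 17 was 2.81 log2 CPM per kb, from -1.56 for *Fbxl21*, an F-box gene, to 5.60 for *Nr1d1*. The *Per* genes, the negative arm, were at 20.3 (*Per1*), 15.1 (*Per2*) and 11.2 (*Per3*) CPM per kb, between *Rora* and *Bhlhe41*. The positive arm was at 8.89 for *Clock*, 3.28 for *Arntl* and 1.53 for *Npas2*, all below *Bhlhe41*. *Cry1* and *Cry2*, the partners of the *Per* proteins, were at 3.60 and 7.01. The output factors *Tef* and *Dbp* were above each of these genes except *Nr1d1*, which alone of the 17 was above *Tef*.

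How far a member's level could include reads of another gene was read from the annotation, because the counting tool, its use of strand and its treatment of reads with several positions are not given in the sources used here. Reads were 50 bases long at each end. No 50-base window of *Hlf* or *Nfil3* occurred in a transcript of another gene. For *Dbp*, 16.2% of the windows did, all of them antisense within *Sphk2*, a sphingosine kinase gene that shares 539 exonic bases with *Dbp* on the opposite strand and had a mean of 4.46 log2 CPM. For *Bhlhe41* the share was 16.4%, antisense to *Gm43909*, a gene model of GENCODE's class TEC, which is not among the genes of the tables. *Ciart* shared 11.9% of its windows, on the same strand, with *Gm9176*, a processed pseudogene on chromosome 10 that also has no value in the tables. The other members shared from 0.31% (*Rora*) to 3.13% (*Usp2*) of their windows, and no window was shared between members. The part of these shared bases in the levels was not tested.

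The tissue was checked against its markers. Of 10 genes listed for corneal endothelium, 9 lay far above the median gene, from 6.14 log2 CPM per kb for *Cdh2* to 10.97 for *Aqp1*, while *Car2* was at -0.53. *Slc4a11* had a mean of 10.71 log2 CPM over the libraries, KO included. All 4 genes listed for keratocytes, the cells of the stroma next to the Descemet membrane, were as high, from 7.20 for *Lum* to 9.34 for *Dcn*. Whether each of the 4 is found in keratocytes alone was not tested. The 5 epithelial genes ran from -3.38 to 3.99, with *Krt12* at 1.71 and *Krt5* highest, the 5 pigment cell genes from -2.74 to 1.0, the 3 lens genes from -0.32 to 1.37 and the 4 leukocyte genes from -3.26 to 3.91. Of the 3 muscle genes, *Myh11* was at 4.76, and *Acta1* and *Des* are not among the genes of the tables. The share of each member's level that came from keratocytes or other cells was not tested.

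**Figure D3:**
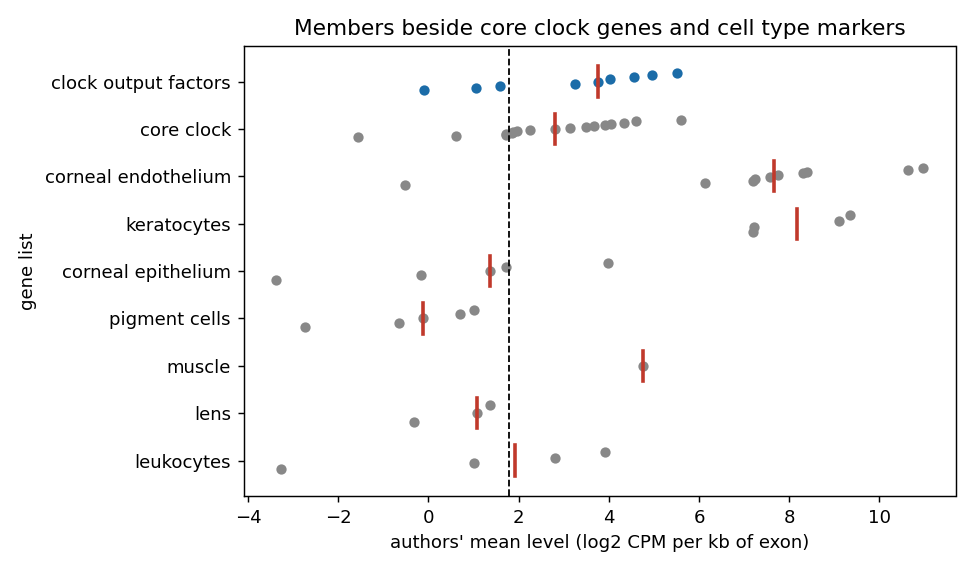
Mean level (log2 CPM per kb of exon) of every gene with a value in each list, with the list's median as a red bar and the median of all genes as a dashed line at 1.79. The clock output factors (blue) and the core clock genes lie between -1.56 and 5.60, while most corneal endothelial genes and all keratocyte genes lie above 6.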

How the data were processed

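Libraries of stranded total RNA from 12 samples in 4 groups were sequenced as paired ends. Per the paper's methods, Hisat2 and the GRCm38 genome were used by the authors for alignment, CPM were scaled by TMM, and the model was limma with voom weights. Versions, counter and annotation release are not given in the sources used here. The authors deposited 3 tables of 15838 genes, for genotype, sex and the interaction. Their log2 fold changes, t, p-values and B statistics are the authors' own comparisons and were not used. The mean log2 CPM over the libraries, as deposited, was used and was equal in the 3 tables. No column holds values of one sample, so no test was run.

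Exonic bases came from GENCODE M21 on GRCm38, which held 15824 of the 15838 genes, and percentiles are the share of these at or below a gene. Python 3.11.15 with pandas 2.3.3 and numpy 2.4.6 was used, and the length, percentile and motif functions were tested on simulated data. The named genes are the 9 members, 18 core clock genes (1 of which is not reported here by name) and the cell type markers, and a gene that shares bases with a member was named after the annotation was read. Members and lists were chosen with earlier results of these data known.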

Additional observations from a re-analysis of the deposited data

How the results depend on the processing

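Of the 9 members, 6 lay above the median gene under each of the 4 alternatives (longest transcript as the length, no length correction, genes of at least 1 CPM, protein-coding genes). The core clock genes above the median numbered 13, and 14, 14, 10 and 10 under these alternatives in that order. The 36 alternative percentiles of the members differed from those reported by at most 8.3 points, 28 lower and 8 higher. *Tef* stayed first and *Nfil3* last with each length, but *Bhlhe40* ranked above *Hlf* with the longest transcript, and without length correction *Rora* and *Hlf* ranked above *Dbp*, *Bhlhe41* above *Bhlhe40* and *Usp2* above *Ciart*. Counting motifs only before the RefSeq start site changed none of the member counts. Exons of GENCODE were not used in that count, and the matches of *Nfil3* and of the upstream *Tef* start site lie in them. Protein identity between members and the fit of genotype and sex were planned and not run. The sources used here held neither a set of protein sequences nor values per library. Without values per library, neither leaving out a replicate nor a depth limit could be computed.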
